A study of Mus musculus with 115 samples.

Results

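The protocadherin genes of the mouse were followed over age in brain, and beside it in skin, liver and whole blood. The members were all protein-coding genes of the count table whose symbol starts with Pcdh, 36 of 37315 genes. They comprised 1 row of the alpha cluster, 22 genes of the beta cluster, 1 row of the gamma cluster and 12 non-clustered genes. A pseudogene row of Pcdh15 was left out. RNA came from untreated male C57BL/6J mice aged 2, 9, 15, 24 or 30 months. Brain, taken as one hemisphere, gave 8, 8, 8, 7 and 8 libraries at these ages, liver gave 4, 5, 5, 5 and 5, hairless abdominal skin gave 5 at each age, and globin-depleted whole blood gave 5, 5, 5, 4 and 5. The youngest mice were compared with the 24- and 30-month mice together, which are called old below.

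Protocadherins are cadherin-like adhesion proteins of the cell surface. The clustered ones lie in tandem as alpha, beta and gamma clusters on chromosome 18. Each neuron switches on a small, partly random choice of their promoters, and the resulting combination of surface proteins lets the branches of one neuron recognise and avoid each other. The choice depends on promoter methylation and on loops that CTCF and cohesin form between promoters and distant enhancers. Alpha and gamma genes splice a variable first exon to constant exons shared by the whole cluster, whereas each beta gene is a single exon. The non-clustered genes are scattered over the genome and act mainly in adhesion, axon growth and cell sorting.

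The deposited table resolved the clusters unevenly. GENCODE vM21 lists 14 alpha genes, and the table had 1 alpha row, named Pcdhac1 (ENSMUSG00000007440, GRCm38 chromosome 18, 37005203 to 37187657). It lists 21 gamma genes, and the table had 1 gamma row, named Pcdhga11 (ENSMUSG00000023036, chromosome 18, 37815079 to 37841873). Both rows are therefore treated as locus rows, and no level of a single alpha or gamma isoform is given. GENCODE vM21 names these identifiers Pcdha11 and Pcdhgc4. The coordinates are those of its entries and may not be the extent over which reads were counted. The C-type isoforms, which most neurons share, could not be separated either. The 22 beta genes had a row each. They lie in numerical order from Pcdhb1 to Pcdhb22 on the plus strand of chromosome 18 between 37264938 and 37524479, a span of 259.5 kb, and each is 1 exon block. Between 0 and 64.2% of the 50-base windows of a beta transcript also occurred in a transcript of another gene, with a median of 4.48%. The highest share was that of Pcdhb12, and the annotated ends of Pcdhb21 and Pcdhb22 overlap, so the counts of these 3 genes are less certain.

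Reads assigned to genes ranged from 28141342 to 50375815 per brain library, from 20190745 to 46592449 in liver, from 27010148 to 40648322 in skin and from 28841527 to 35296480 in blood. In brain, 5 pairs of a 9-month and a 15-month library nearly coincided, namely the replicates numbered 4 to 8, each with its namesake. Their mean chi-square per gene was 1.23 to 2.96 over 15136 genes, against 4.71 for the closest pair of one age. The main results that use these ages are also given without the 10 libraries. Pituitary hormone genes were uneven in brain, with a summed level of 4.90 to 29.1 CPM (counts scaled to a common library size) at 2 months, 2.99 to 2774 CPM at 24 months and 2.88 to 2469 CPM at 30 months. In the comparison of old with 2-month mice given below, 4 of 7 of them rose with edgeR, 3 were called by DESeq2 and 0 by limma voom, with a median log2 fold change of 5.64 and no gene at 0 counts. The part of this shift in the results was not tested. In a bulk sample, fewer cells of a type and less RNA per cell cannot be told apart.

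Brain held more protocadherin RNA than the other tissues. At 2 months, 34 of the 36 members had their highest mean level in brain, on the scale of library totals, and 34 reached 1 CPM there. In skin 14 members reached 1 CPM, in liver 4 and in blood 0. The gamma row was the most abundant in brain, with 528 CPM, against 92.2 CPM in skin, 17.5 CPM in liver and 0.528 CPM in blood. The alpha row had 144 CPM in brain and 0.498 CPM in skin. The exceptions were Pcdh12, a protocadherin of endothelial cells, with 8.82 CPM in liver and 0.665 CPM in brain, and Pcdh7, with 89.3 CPM in skin and 73.1 CPM in brain. Pcdh1 was nearly as high in liver (114 CPM) and skin (115 CPM) as in brain (177 CPM).

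**Figure D1:**
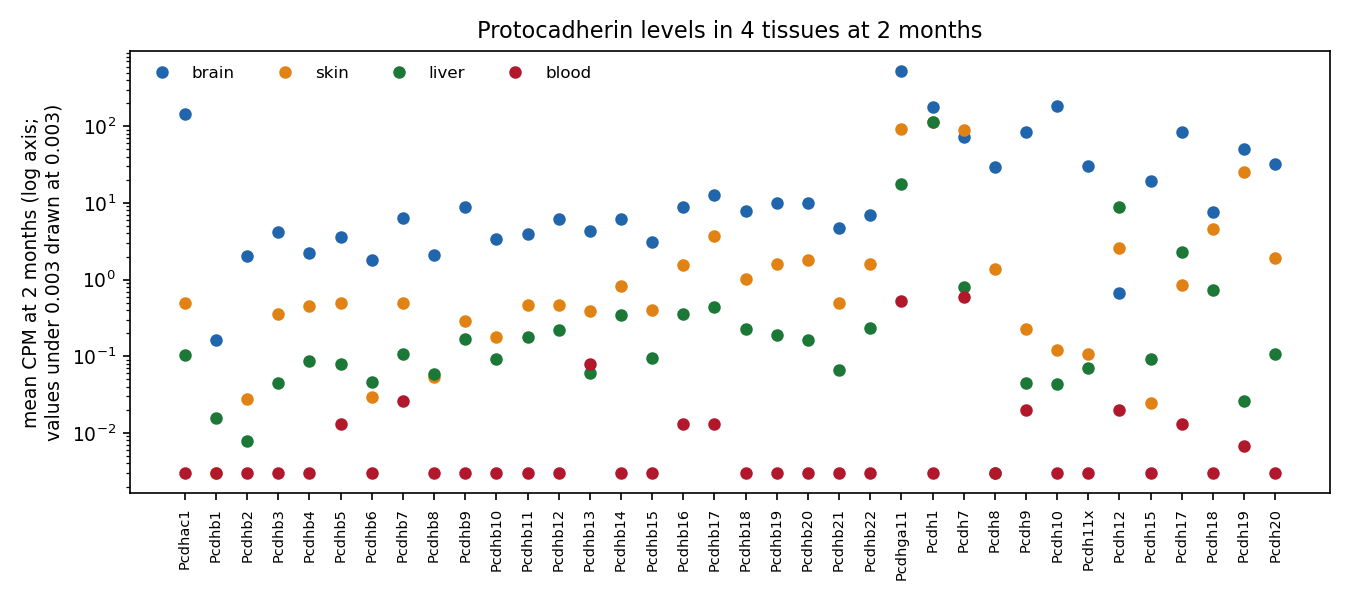
Mean level of each protocadherin at 2 months in brain (n = 8), skin (n = 5), liver (n = 4) and blood (n = 5), in CPM of library totals on a log axis, with values under 0.003 drawn at 0.003. Brain is the highest tissue for 34 of 36 members, and most blood values lie at the floor of the axis.

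The first question was which protocadherins differed in brain between old mice and 2-month mice. Beta genes at the start of their cluster were higher in old mice, while those at its end, the alpha row, the gamma row and 11 of the 12 non-clustered genes did not pass the test. Of the 36 members, all of which passed the filter on low counts, 10 rose and 1 fell at an adjusted p under 0.05 with edgeR. Over all 18851 genes tested, 4.61% rose, 3.37% fell and 7.98% were called in either direction. All 10 that rose were beta genes, and the one that fell was Pcdh12. The median log2 fold change was 0.56 over the 22 beta genes, -0.09 over the non-clustered genes and -0.0016 over all genes. Leaving out the 10 near-identical libraries kept all 11 calls and added none.

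Pcdhb6 (ENSMUSG00000051678, chromosome 18, 37333921 to 37337674) had the smallest adjusted p of all members. Its lowest, median and highest levels were 1.22, 1.79 and 2.42 CPM at 2 months, 1.44, 2.61 and 3.19 CPM at 9 months, and 1.73, 2.72 and 3.26 CPM at 15 months. They were 3.44, 4.22 and 4.85 CPM at 24 months and 3.02, 3.95 and 5.74 CPM at 30 months. The 3 libraries of each middle age that had no near-identical partner held 1.58, 2.85 and 1.44 CPM at 9 months and 2.24, 2.60 and 3.26 CPM at 15 months, above the 2-month range in 3 of 6 cases. Every old library lay above every 2-month library, which held for no other member and for 0.562% of all genes. The log2 fold change of Pcdhb6 was 1.23 ± 0.15 (SE), with an adjusted p of 1.86e-07.

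Pcdhb9 (ENSMUSG00000051242, chromosome 18, 37400855 to 37403909) was the most abundant of the beta genes that rose. Its lowest, median and highest levels were 6.41, 9.02 and 10.2 CPM at 2 months, 11.03, 13.5 and 18.6 CPM at 15 months and 16.8, 18.9 and 22.95 CPM at 24 months. At 30 months they were 9.87, 19.4 and 23.2 CPM. Without the near-identical libraries, the values were 6.75, 14.6 and 8.12 CPM at 9 months and 11.98, 17.7 and 18.6 CPM at 15 months. The 9-month values of 6.75 and 8.12 CPM lay within the 2-month range. Of the old libraries, 14 of 15 exceeded the young range, and the exception was replicate 7 of the 30-month mice. The log2 fold change was 1.11 ± 0.14, with an adjusted p of 4.9e-07. Per kilobase of exon, the level of Pcdhb9 went from 2.86 CPM at 2 months to 6.03 CPM at 30 months, while Pcdhb20, second among the beta genes at 2 months, had 2.83 and 2.81 CPM.

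Pcdhb1 (ENSMUSG00000051663, chromosome 18, 37264938 to 37267525), the first gene of the cluster, had the largest fold change of the members and the lowest level at 2 months. Its counts were 4 to 13 reads per library at 2 months, 9 to 38 at 24 months and 12 to 38 at 30 months. The mean was 0.163 ± 0.071 CPM at 2 months and 0.559 ± 0.209 CPM at 30 months (SD, n = 8 each). On the log2 scale Pcdhb1 rose by 1.85 ± 0.29, with an adjusted p of 2.04e-05, and the young range was exceeded in 14 of 15 old libraries.

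For the other beta genes that rose, fewer old libraries cleared the young range. Pcdhb2 went from a median of 2.16 CPM (1.14 to 3.17) at 2 months to 5.50 CPM (3.22 to 6.89) at 24 months and 5.31 CPM (1.57 to 7.21) at 30 months. The log2 fold change of Pcdhb2 was 1.29 ± 0.25, with an adjusted p of 0.0004. Pcdhb8 rose by 1.0 ± 0.18 on the log2 scale (adjusted p = 0.000192), and 13 of 15 old libraries of both genes exceeded the young ones. Pcdhb3 had a log2 fold change of 0.98 ± 0.20 and Pcdhb5 of 0.81 ± 0.19, and for each the young range was exceeded in 12 of 15 old libraries. The rises of Pcdhb4 (0.73 ± 0.20), Pcdhb14 (0.70 ± 0.17) and Pcdhb11 (0.64 ± 0.13) had adjusted p-values of 0.013, 0.00496 and 0.000515, and between 8 and 11 of the 15 old libraries lay above the young range. With the 30-month mice alone as the old group, Pcdhb4 had a log2 fold change of 0.63 and an adjusted p of 0.0617.

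**Figure D2:**
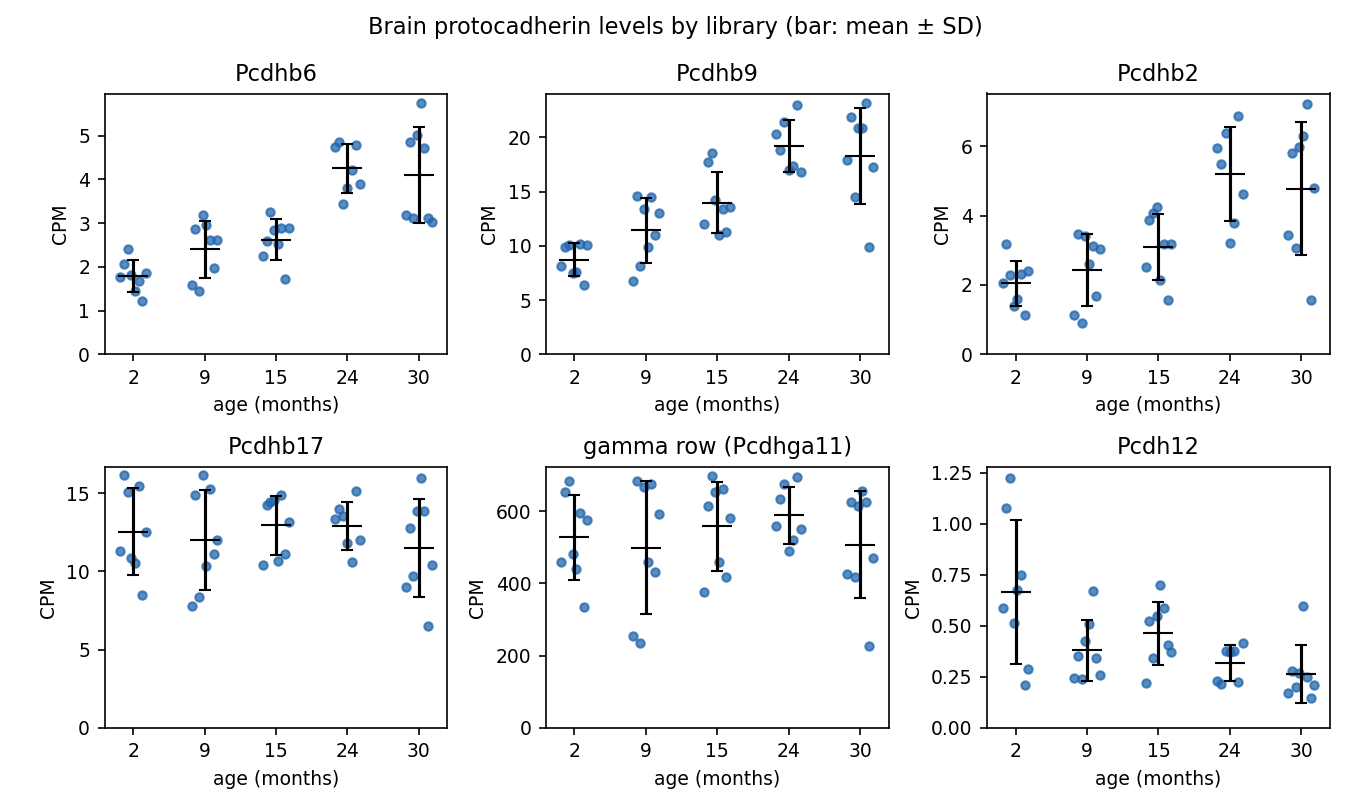
Level in CPM (vertical axes from 0) of 6 protocadherins in each of the 39 brain libraries by age in months, with the mean and SD of each age. Pcdhb6, Pcdhb9 and Pcdhb2 are higher at 24 and 30 months, and Pcdhb17 and the gamma row overlap across ages. Pcdh12 has a lower mean at each later age than at 2 months, with 1 library of 30 months at 0.599 CPM.

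The fold changes were ordered along the cluster. Of the 11 beta genes from Pcdhb1 to Pcdhb11, 9 rose and the median log2 fold change was 0.98. The exceptions were Pcdhb7 (0.31 ± 0.14, adjusted p = 0.229) and Pcdhb10 (0.28 ± 0.14, adjusted p = 0.294). Of the 11 genes from Pcdhb12 to Pcdhb22, only Pcdhb14 rose and the median was 0.14. Pcdhb13 (0.64 ± 0.23, adjusted p = 0.0751) and Pcdhb12 (0.48 ± 0.20, adjusted p = 0.164) missed the threshold. Pcdhb13 passed it with DESeq2, with a replicate block, with age as a linear term and with either library covariate described below. Pcdhb7, Pcdhb10 and Pcdhb12 passed it with either covariate. The 8 genes from Pcdhb15 on had log2 fold changes between -0.09 and 0.16.

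Across the 22 beta genes, Spearman's rho between log2 fold change and distance from Pcdhb1 was -0.88. The same coefficient was -0.50 with mean level, -0.49 with exon length and -0.19 with the share of 50-base windows found in other genes. These values describe neighbouring genes in one set of libraries, which are not independent, and the part of level and exon length in the order was not tested.

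**Figure D3:**
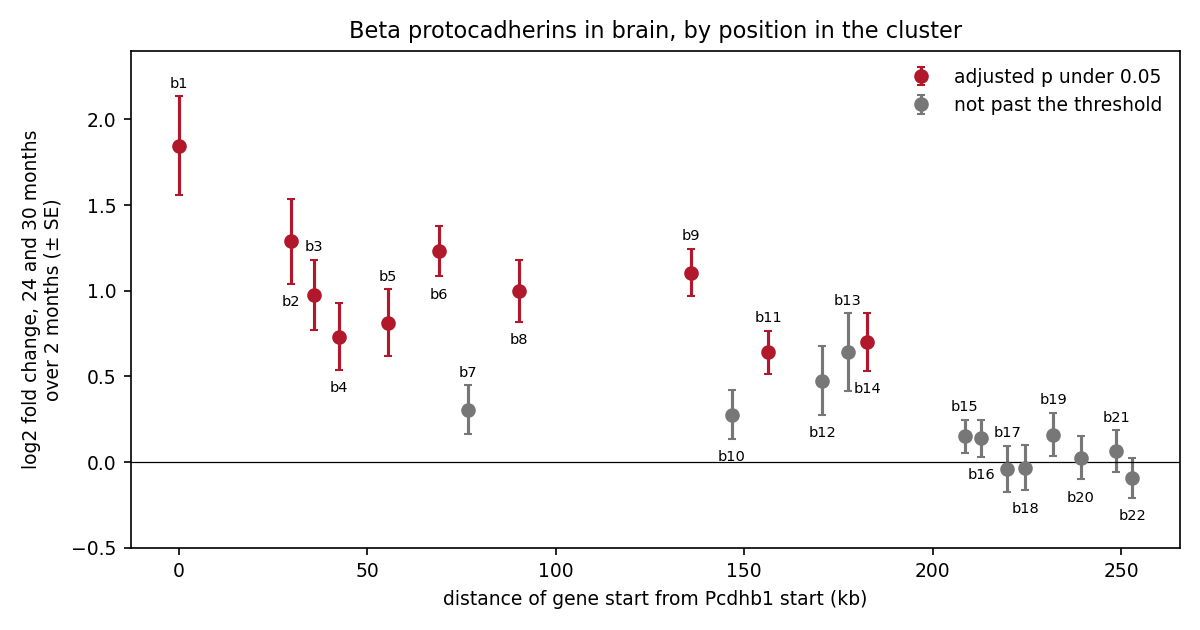
Log2 fold change of old (24 and 30 months) over 2-month brain, with its SE, for the 22 beta genes (b1 to b22) against the distance of the gene start from the start of Pcdhb1 in kb. The 10 genes past the threshold all lie within 182.7 kb of Pcdhb1, and the last 8 genes lie near 0.

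In CPM, which is not corrected for length, Pcdhb17 toward the end of the cluster was the highest beta gene of the young brain. Pcdhb17 had 12.5 ± 2.75 CPM at 2 months (SD, n = 8), 12.9 ± 1.54 CPM at 24 months (SD, n = 7) and 11.5 ± 3.12 CPM at 30 months (SD, n = 8). For Pcdhb17 the log2 fold change of old over young was -0.04 ± 0.14, and of 15 old libraries 0 exceeded the young range and 1 fell short of it. Pcdhb20 (0.03 ± 0.13) and Pcdhb19 (0.16 ± 0.13) had similar values. Per kilobase of exon, on the scale of library totals, Pcdhb9 was above Pcdhb17 already at 2 months, with 2.86 against 2.70 CPM, and at 30 months the values were 6.03 and 2.49 CPM. The exon lengths are 3055 bases for Pcdhb9 and 4660 for Pcdhb17.

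Sums over the beta cluster put these differences on one scale within each library. The division between Pcdhb11 and Pcdhb12 was set after the values had been seen, so the sums are given without a test. The ratio of the Pcdhb1 to Pcdhb11 sum to the Pcdhb12 to Pcdhb22 sum was 0.427 to 0.495 at 2 months (median 0.482), 0.437 to 0.595 at 9 months (0.566) and 0.544 to 0.647 at 15 months (0.580). It was 0.697 to 0.819 at 24 months (0.760) and 0.675 to 0.807 at 30 months (0.754). All 15 old libraries of the main table were above all younger libraries, and 15 of the 16 libraries of 9 and 15 months, or 5 of 6 without the near-identical ones, were above all of 2 months. A further 24-month brain library, deposited in a separate table and not part of these 15, had a ratio of 0.597, below all of them and within the range of 9 and 15 months. In that library 22.3% of counts were mitochondrial and the gamma row had 204 CPM of library totals. Without the near-identical libraries the mean ratio was 0.499 at 9 months and 0.632 at 15 months, with 3 libraries each. The share of the first 11 genes in the beta sum averaged 32.2 ± 1.16% at 2 months (SD, n = 8) and 42.6 ± 1.58% at 30 months (SD, n = 8).

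The alpha and gamma rows varied widely between libraries of one age and overlapped between ages. The gamma row had a lowest, median and highest level of 334.02, 527 and 684 CPM at 2 months, 488, 559 and 693 CPM at 24 months and 227, 543 and 655 CPM at 30 months. The log2 fold change was 0.05 ± 0.18 for the gamma row (adjusted p = 0.939) and -0.0075 ± 0.18 for the alpha row (adjusted p = 0.995). The alpha row averaged 144 ± 39.03 CPM at 2 months and 131 ± 43.8 CPM at 30 months (SD, n = 8 each).

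The summed level of every protocadherin group followed a property of the library. The same relations were not examined for other genes, so they are not shown to be particular to protocadherins. Over 34 brain libraries, one of each near-identical pair left out, and with age means subtracted, the log2 level of the gamma row had a Pearson r of -0.985 and a Spearman rho of -0.973 with the share of counts from mitochondrial transcripts. Without the 2 libraries farthest from the median, r was -0.977. With the mean log2 level of ribosomal protein genes r was -0.979 and rho -0.962, and r was -0.969 without the 2 farthest. The alpha row had an r of -0.967 and a rho of -0.953 with the mitochondrial share, the beta sum -0.933 and -0.946, and the non-clustered sum -0.976 and -0.976. Without the 2 farthest libraries, r was -0.963, -0.930 and -0.966. With the ribosomal genes these 3 quantities had r of -0.985, -0.968 and -0.982 and rho of -0.974, -0.975 and -0.969, and r of -0.986, -0.963 and -0.979 without the 2 farthest. Each of the 8 relations had a permutation p of 1e-05, the smallest that 100000 permutations within ages can give, and 1e-05 after adjustment over the 8. The mitochondrial share ranged from 5.94 to 12.96% at 2 months, 5.79 to 8.85% at 24 months and 6.49 to 16.5% at 30 months. Replicate 7 of the 30-month mice, at 16.5%, was the lowest of the old libraries in the gamma row (227 CPM), the alpha row (63.2 CPM), the beta sum (91.8 CPM) and the non-clustered sum (358 CPM), and had a beta ratio of 0.675. With the mitochondrial share in the model, the 11 members stayed called in the same direction and 9 more were called. With the ribosomal score 8 more were. The calls over all genes also grew with either covariate, with the values given under processing below. The members gained with either were Pcdhb7, Pcdhb10, Pcdhb12, Pcdhb13, Pcdh10, Pcdh11x, Pcdh15 and Pcdh20. Pcdh18 was gained with the mitochondrial share only.

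**Figure D4:**
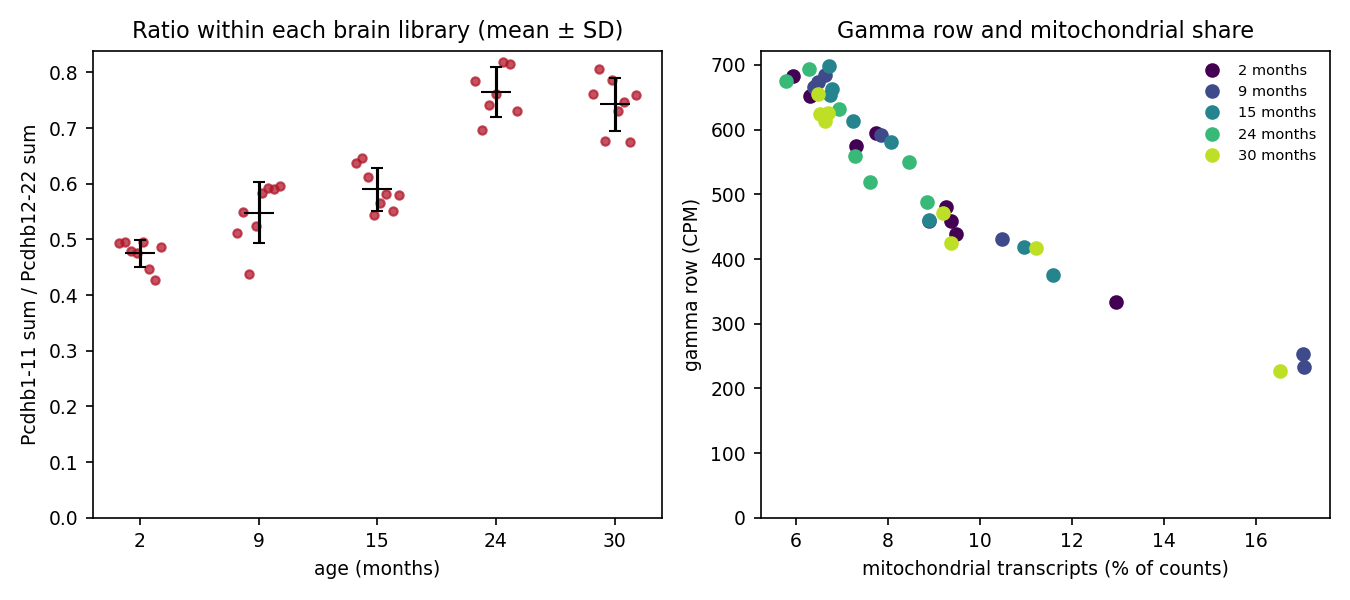
Left, the ratio of the Pcdhb1 to Pcdhb11 sum to the Pcdhb12 to Pcdhb22 sum in each brain library by age in months, with the mean and SD. Right, the gamma row in CPM against the percentage of counts from mitochondrial transcripts, 1 point per library. The ratio of the 15 old libraries of the main table exceeds that of all younger ones, while the gamma row falls as the mitochondrial share rises.

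The next question was between which ages the rise occurred. No member passed the test between successive ages with edgeR or limma voom. Between 15 and 24 months, 8 members had an unadjusted p under 0.05, all of them higher at 24 months, against 2.42% of all genes. The smallest adjusted p was 0.0811, for Pcdhb11. DESeq2 called 2 members there, and the share of all genes it called is not given here. With edgeR, no member and 0.0424% of all genes passed the adjusted threshold in this interval. Between 2 and 9 months, 4 members had an unadjusted p under 0.05, against 5.54% of all genes. In the intervals from 9 to 15 and from 24 to 30 months 0 members did, against 1.98% and 11.1% of all genes, and DESeq2 called 0 in these 3 intervals. At the adjusted threshold edgeR called 0.34% of genes from 2 to 9 months, 0% from 9 to 15 months and 0.249% from 24 to 30 months.

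The size of the early steps depended on the near-identical libraries. The 11 genes from Pcdhb1 to Pcdhb11 had a median log2 difference of 0.22 from 2 to 9 months, 0.20 from 9 to 15 months, 0.48 from 15 to 24 months and -0.12 from 24 to 30 months. Without the 10 libraries these medians were -0.09, 0.60, 0.43 and -0.12, so the first step changed sign and the second was the largest. Of the 11 genes, 9 were higher at 9 than at 2 months with these libraries and 4 without them. In both cases all 11 were higher at 15 than at 9 months and at 24 than at 15 months. All 11 were lower at 30 than at 24 months. The 11 genes were grouped after their rise in old mice had been seen. With all libraries, every other member except Pcdh15 was also higher at 15 than at 9 months. All members but Pcdhb18 and Pcdhb21 were lower at 30 than at 24 months. Without the 10 libraries the mean sum of the 11 genes was 38.3, 36.1 and 55.2 CPM at 2, 9 and 15 months. With them it was 38.3, 43.5 and 51.1 CPM. The gamma row and the non-clustered sum also dipped at 9 months without the 10 libraries, where 3 libraries were left. Their means at 2, 9 and 15 months were 527.1, 390.5 and 562.4 CPM for the gamma row. For the non-clustered sum they were 770.1, 573.8 and 765.5 CPM. The first and second steps without the 10 libraries are therefore not read as a timing particular to the beta genes. The members with an unadjusted p under 0.05 then numbered 4 from 2 to 9 months, all of them lower at 9 months, 4 from 9 to 15 months and 2 from 15 to 24 months, against 17.8%, 12.1% and 1.49% of all genes, and 0 were called. In a test for any difference among the 5 ages, 10 members were called, against 6.47% of all genes. The member called between old and 2 months but not in this test was Pcdhb4 (adjusted p = 0.0686). Without the 10 near-identical libraries the same test called 9 members, and the share of all genes it then called is not given here.

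The non-clustered protocadherins of brain did not pass the test, with the exception of Pcdh12. Pcdh12 (ENSMUSG00000024440, chromosome 18, 38267089 to 38284402) had a lowest, median and highest level of 0.211, 0.632 and 1.22 CPM at 2 months. These were 0.240, 0.348 and 0.670 CPM at 9 months and 0.219, 0.465 and 0.701 CPM at 15 months. At the old ages they were 0.215, 0.372 and 0.415 CPM at 24 months and 0.145, 0.230 and 0.599 CPM at 30 months. The groups thus overlapped, and 4 of 15 old libraries lay below the 2-month range. The counts behind these values were 5 to 45 reads. The log2 fold change of Pcdh12 was -1.17 ± 0.25 (adjusted p = 0.0017), and it was -1.05 with an adjusted p of 0.0534 when 24 months alone was the old group. The step from 2 to 9 months was -0.79 ± 0.29 (adjusted p = 0.517) and that from 9 to 15 months 0.30 ± 0.30. The fall is therefore not placed at a given age. Of 8 endothelial and mural markers 1 fell and 0 rose, with a median log2 fold change of -0.15 and none at 0 counts. Their summed level was 227 to 379 CPM at 2 months and 180 to 347 CPM over the old libraries. The one that fell was Cldn5, a tight junction protein of brain endothelium (-0.44 ± 0.11, adjusted p = 0.00692). Of 7 meningeal fibroblast markers 2 fell, the collagen genes Col1a1 and Col3a1, and their part in the result was not tested.

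Pcdh15, known for the tip links of inner ear hair cells, had a log2 fold change of -0.17 ± 0.06 and an adjusted p of 0.0531. It passed the threshold with RLE scaling, DESeq2, the replicate block, either covariate, the added library and age as a linear term. With 30 months alone as the old group its adjusted p was 0.0367. It did not pass with limma voom, without the filter or without the near-identical libraries. Pcdh1 (0.09 ± 0.23), Pcdh7 (0.0019 ± 0.19), Pcdh9 (0.02 ± 0.15) and Pcdh11x (-0.17 ± 0.09), which share a long cytoplasmic tail with conserved motifs, did not pass. The same held for Pcdh8 (0.02 ± 0.25), Pcdh10 (-0.09 ± 0.11), Pcdh17 (-0.08 ± 0.15), Pcdh18 (-0.17 ± 0.17) and Pcdh19 (-0.03 ± 0.19), a group whose members act in axon growth and synapse formation. Pcdh20 had -0.24 ± 0.14. Per kilobase of exon, Pcdh1 was the highest of the members with a length at 2 months (20.1 CPM), followed by Pcdh9 (12.4 CPM) and Pcdh10 (11.4 CPM).

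Genes beside the clusters and genes of the same pathway gave a reference. Within 500 kb of the clusters 32 other genes were tested, of which 3 rose and 0 fell, with a median log2 fold change of -0.01. Over all genes 4.61% rose and 3.37% fell. Taf7, a general transcription factor subunit between the beta and gamma clusters, had 0.03 ± 0.06. The 3 that rose, named here after their values were seen, were Cd14, an innate immune receptor (0.65 ± 0.14), E230025N22Rik (1.33 ± 0.15) and 3222401L13Rik (0.92 ± 0.13). The last lies on the plus strand at 37655451 to 37661742, between Taf7 and the gamma row, and went from 2.27 ± 0.54 CPM at 2 months to 4.55 ± 0.82 CPM at 30 months (SD, n = 8 each).

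Of 22 genes for regulators of the clusters, such as cohesin subunits and DNA methyltransferases, 1 fell and 0 rose, where 3.37% of all genes fell and 4.61% rose. It was Dnmt3a, a de novo DNA methyltransferase, at -0.19 ± 0.04 on the log2 scale (adjusted p = 0.000262), and 3 of the 22 had an unadjusted p under 0.05. Of 19 cytoplasmic partners 1 fell, the kinase gene Fyn (-0.21 ± 0.05, adjusted p = 0.00552), and 0 rose. None of 19 classical cadherins was called by edgeR, limma voom or DESeq2, and 2 had an unadjusted p under 0.05. None of 9 giant and seven-pass cadherins was called by these tools either, and 1 had an unadjusted p under 0.05. The medians of these 4 lists were between -0.07 and 0.01. Of the cell type lists, 5 of 9 markers of new neurons, 4 of 8 of myelin, 2 of 9 of oligodendrocyte precursors, 1 of 6 of striatum and 1 of 10 of neurons fell. Markers that rose were 4 of 7 of pituitary, 3 of 8 of microglia and 1 of 9 of astrocytes. None of the markers of choroid plexus and ependyma, cerebellum, cortex and hippocampus or olfactory bulb was called by edgeR, limma voom or DESeq2, and the genes with an unadjusted p under 0.05 numbered 2 for choroid plexus and ependyma, 1 for olfactory bulb and 0 for the others. The part of these shifts in the beta rise was not tested.

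In skin the pattern was wider. Of the 28 members that passed the filter, 13 rose and 2 fell between 2 months and old age. This stands against a background in which 43.9% of all 18803 genes were called, 19.6% higher and 24.2% lower. The members that rose included the alpha row, the gamma row and 10 of 17 tested beta genes, 3 of 6 from Pcdhb1 to Pcdhb11 and 7 of 11 from Pcdhb12 to Pcdhb22. Spearman's rho between log2 fold change and distance from Pcdhb1 was -0.27 over these 17 genes. The difference between tissues was not tested.

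Pcdhb12 had the smallest adjusted p of the members in skin, with the caveat on shared sequence given above. Its 5 libraries of 2 months had 0.533, 0.402, 0.333, 0.606 and 0.487 CPM, and those of 30 months had 1.27, 1.505, 1.07, 1.43 and 1.45 CPM. All 10 old libraries of Pcdhb12 lay above the young ones, with a log2 fold change of 1.44 ± 0.19 and an adjusted p of 0.000136. In all, 3 members showed no overlap in this direction, against 1.45% of all genes. The others were Pcdhb7 (0.92 ± 0.20) and Pcdhb9 (1.35 ± 0.38).

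The alpha row rose from 0.609, 0.340, 0.523, 0.404 and 0.631 CPM in the 2-month skin libraries to 1.35, 1.96, 1.56, 1.58 and 2.06 CPM at 30 months. The old group as a whole was higher by 1.51 ± 0.24 on the log2 scale (adjusted p = 0.00041). The row had 1.33, 1.24, 1.24, 1.36 and 1.91 CPM at 9 months and 1.64, 0.812, 0.523, 1.29 and 1.71 CPM at 24 months, where replicate 3 lay within the young range. It passed the test from 2 to 9 months (1.49 ± 0.26, adjusted p = 0.0198), against 0.202% of all genes, and between no later ages. The gamma row had 126, 94.1, 83.6, 78.1 and 84.3 CPM at 2 months and 121, 134, 125, 138 and 140 CPM at 30 months. The log2 fold change of old over young was 0.46 ± 0.09 (adjusted p = 0.0014). The mean of the gamma row was already 122 CPM at 9 months. Its step from 2 to 9 months was 0.39 ± 0.11, which did not pass the test (adjusted p = 0.0863). Replicate 1 of the 2-month mice was within the range of the old libraries. Pcdhb14 (0.97 ± 0.21), Pcdhb4 (0.84 ± 0.28), Pcdhb16 (0.64 ± 0.19), Pcdhb15 (0.64 ± 0.23), Pcdhb17 (0.49 ± 0.13), Pcdhb22 (0.46 ± 0.18), Pcdhb18 (0.43 ± 0.17) and the non-clustered Pcdh18 (0.61 ± 0.21) also rose. From 2 to 9 months Pcdhb15 differed by 0.67 ± 0.25, Pcdh18 by 0.66 ± 0.24 and Pcdhb17 by 0.12 ± 0.14. None of these steps passed the test. Of 25 settings that left out 1 library, the call of Pcdhb22 was lost in 17, that of Pcdhb18 in 9, Pcdh18 in 4, Pcdhb15 in 3 and Pcdhb4 in 2. Without the filter Pcdhb22 and Pcdhb18 were lost as well. Without replicate 2, 3 or 4 of the 2-month skin, 9 members rose in each case. The share of all genes called without these libraries is not given here.

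Pcdh19, linked in humans to a female-limited epilepsy, and Pcdh8, an activity-regulated protocadherin, fell in skin. The levels of Pcdh19 were 6.70, 27.6, 27.5, 32.7 and 28.1 CPM at 2 months and 8.23, 6.44, 10.4, 7.64 and 7.95 CPM at 30 months. The log2 fold change of old over young was -1.53 ± 0.33 for Pcdh19 (adjusted p = 0.00196). Its mean was 12.2 CPM at 9 months, and the step from 2 to 9 months was -1.01 ± 0.40 (adjusted p = 0.12). Pcdh8 had 0, 1.52, 1.76, 1.13 and 2.29 CPM at 2 months and 0.0728, 0, 0.704, 0.0376 and 0 CPM at 30 months, or -2.72 ± 1.01 on the log2 scale (adjusted p = 0.0337). Replicate 1 of the 2-month skin was the lowest of its age for both genes and lay among the old libraries. The call of Pcdh8 was lost in 10 of 25 settings that left out 1 library, without the filter and with DESeq2. The most abundant members besides the gamma row and Pcdh19, Pcdh1 (-0.25 ± 0.16, adjusted p = 0.21) and Pcdh7 (-0.17 ± 0.16, adjusted p = 0.387), did not pass.

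**Figure D5:**
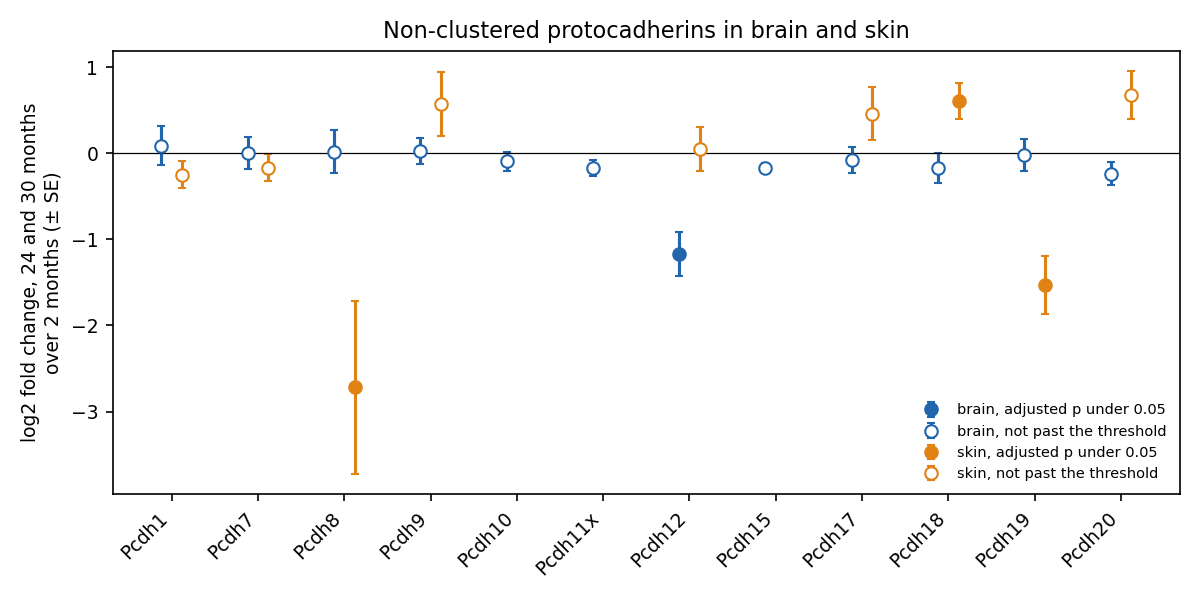
Log2 fold change of old (24 and 30 months) over 2-month libraries, with its SE, for the 12 non-clustered protocadherins in brain (blue) and the 9 tested in skin (orange), filled where the adjusted p was under 0.05. Only Pcdh12 is filled in brain, and in skin Pcdh8 and Pcdh19 are filled below 0 and Pcdh18 above 0.

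Liver and blood were described by level and not tested. In liver, the gamma row had 17.5 ± 3.63 CPM at 2 months (SD, n = 4), 28.9 ± 5.80 CPM at 24 months (SD, n = 5) and 27.6 ± 2.98 CPM at 30 months (SD, n = 5). Its libraries ranged from 12.2 to 20.5 CPM at 2 months and from 23.4 to 30.8 CPM at 30 months. The ranges of these ages were also apart for the alpha row (0 to 0.346 and 0.446 to 1.92 CPM) and other members. Those of Pcdh1 and Pcdh12 overlapped. The share of all liver genes with ranges apart was not examined, so this is not read as a result about the gamma row. Pcdh1 ranged between means of 92.0 and 143 CPM over the ages and Pcdh12 between 7.98 and 8.91 CPM. In blood no member had a mean above 2 CPM at any age. The gamma row had 0.528 ± 0.204 CPM at 2 months and 0.954 ± 0.574 CPM at 30 months, and Pcdh7 had 0.586 ± 0.388 and 1.31 ± 0.28 CPM (SD, n = 5 each).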

How the data were processed

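RNA was sequenced from 39 brain, 24 liver, 25 skin and 24 blood libraries. Per the labels and methods, reads of 50 bases were aligned with TopHat2 2.0.6 to GRCm38 and assigned with HTSeq 0.5.3p9 and featureCounts 1.4.3-p1, and the authors left out libraries that stood apart on scaling plots. The strand setting is not given in the sources used here. The deposited values are raw read counts per gene. The deposited RPKM were used for no result, because the gene lengths they imply were unrelated to annotated exon lengths (Spearman rho across 14845 genes = 0.00289). An added 24-month brain library, from a separate table, entered one alternative and is otherwise given apart.

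The count test was that of edgeR 4.0.16 under R 4.3.3 (filterByExpr, TMM scaling, robust quasi-likelihood) with age as a factor in each tissue, and Benjamini-Hochberg adjustment ran over all genes tested with a threshold of 0.05. The standard error was the log2 fold change divided by the square root of F. The code was tested on simulated counts. Alternatives were RLE scaling, no filter, limma 3.58.1 voom, DESeq2 1.42.0, covariates, blocks and single libraries left out. CPM used TMM library sizes, except across tissues and per kilobase, where library totals were used. Coordinates and exon lengths came from GENCODE vM21, later than the authors' annotation. Named genes were the called members, the most abundant members, all non-clustered members of brain and the list genes of smallest p. Members, lists and rules were chosen with earlier results of these data known. Nothing says that brain libraries with one title number share an animal, so p-values measure the spread between libraries.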

Additional observations from a re-analysis of the deposited data

Results flagged for a closer look

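Single libraries stood apart from the rest of their age in 8 of 145 groups of values examined, and chance flags about 1 in 20. In brain, Pcdh12 had 0.599 CPM in replicate 5 of the 30-month mice, against 0.280 CPM in the next library. In skin, replicate 1 of the 2-month mice had 6.70 CPM of Pcdh19, against 27.5 CPM in the next library. Replicate 2 of the 24-month skin was high in Pcdh19 (17.0 CPM) and in Pcdh8 (1.06 CPM, next 0.0880 CPM), and replicate 3 of the 30-month skin was high in Pcdh8 (0.704 CPM). Replicate 1 of the 15-month skin was high in Pcdhb9 (3.06 CPM, next 0.966 CPM) and Pcdhb17 (5.67 CPM), and replicate 5 of the 9-month skin was high in Pcdhac1 (1.91 CPM).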

How the results depend on the processing

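In brain, all 11 calls between old and 2 months were kept, with no change of sign, under RLE scaling, no filter, limma voom, DESeq2, both blocks, both covariates, the added library, age as a linear term and each library left out. The members that rose numbered 9 to 14 over these settings and either old age alone, and 10 to 11 with 1 library left out. The members that fell numbered 2 under RLE scaling, DESeq2, the replicate block, the added library, a linear term and 30 months alone, 5 with the ribosomal score, 6 with the mitochondrial share, 0 with 24 months alone and 1 to 2 with 1 library left out. The cause was not tested. With the ribosomal score and the mitochondrial share as covariates the calls over all genes went from 1505 to 4613 and 3987, and the members called at any age from 10 to 17 and 18 (8 to 11 with 1 library left out). From 2 to 9 months 6 members were called with either covariate. From 15 to 24 months 8 were called with the ribosomal score, 5 with the mitochondrial share, 2 with DESeq2, 1 with the replicate block, and 0 to 1 with 1 library left out. The share of all genes called in these intervals under these settings is not given here. These counts are therefore not read as a result about the protocadherins.

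Same-numbered brain libraries of different ages shared deviations unevenly (67 pairs, r from -0.651 to 0.744, median 0.227, 50 over 0.1). The median r was -0.139 for the same title code with another number (80 pairs) and -0.0346 for another code (456 pairs), a hint of a shared effect from the data, not the design. Since some pairs were under 0.1, the numbers were not taken as pairs. With title code and number as a replicate block, 11 members rose, 2 fell and 12 were called at any age, and 1979 genes were called in all. The members gained were Pcdhb13 and Pcdh15.

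In skin, the members that rose numbered 11 to 16 over the settings and 9 to 16 with 1 library left out. The members that fell numbered 1 without a filter and with DESeq2, and 1 to 2 with 1 library left out. The share of all skin genes called under these settings is not given here, so the counts are not read as a result about the protocadherins. The ratio of the beta sums at 15 months was 0.632 without the near-identical libraries, a division and setting chosen after seeing the data. Depth limits Pcdhb1 and Pcdh12 in brain and most members in skin, where few reads lie behind a value.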
